A study of Saccharomyces cerevisiae with 6 samples.

Results

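The middle one of 3 groups of budding yeast libraries, T2, was set against the mean of the outer groups, T1 and T3, to find transcripts that peak or dip in the middle and transcripts that complete most of their change on one side of it. The contrast is the mean log2(TPM + 1) of the T2 libraries minus the average of the T1 mean and the T3 mean, called the middle contrast here. TPM is a length-corrected share of all transcripts counted in a library, scaled to a fixed total. The contrast was computed for 6046 genes, those whose mean over the 6 libraries reached 1 TPM, out of 6400 named entries. The 354 entries left out lay below that level. tV(CAC)D was the entry nearest above the limit, at 1.02 TPM, and SUF23 the nearest below it, at 0.999 TPM.

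All 6 libraries are poly(A) RNA of W303, a laboratory strain of Saccharomyces cerevisiae, with 2 libraries, replicates A and B, in each of T1, T2 and T3. The sample titles mark all groups as arrested, and the design text of the series speaks of populations with different mean cell sizes. The labels give no size, no time, no arrest method and no further genotype, and the 3 groups share whatever the arrest required. In particular the spacing of T1, T2 and T3 is unknown, so a T2 value away from halfway between the outer groups is also what an even course sampled at uneven steps would give. A peak or a dip does not depend on the spacing. Nothing in the labels says that replicates A and B came from separate cultures, so p-values may measure technical spread alone. The 2 libraries of a group had Spearman correlations across genes of 0.994 in T1, 0.996 in T2 and 0.996 in T3. The first principal component held 70.8% of the variance and placed both T2 libraries between those of T1 and T3. Genes that alpha cells use for mating lay between 19.55 and 3200 TPM, and genes of a cells between 0.77 and 11.25 TPM.

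Budding yeast cells that are held in the cell cycle go on growing, so their RNA content and metabolism move while division is stopped. Heat shock factor Hsf1 drives chaperone genes through repeated GAA units in their promoters. In daughter cells leaving mitosis, enzymes are made that digest the wall between mother and daughter. Genes for permeases and for the use of poor nitrogen sources are held down on rich nitrogen by nitrogen catabolite repression and are read by factors that bind GATA sequences.

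Few genes were called as having T2 values away from the outer mean. T2 lay above the outer mean for 19 genes (0.314% of those tested) and below it for 46 genes (0.761%), by limma with Benjamini-Hochberg adjusted p below 0.05. Without adjustment, 312 genes lay above and 469 below at a limma p below 0.05, together 12.9% of those tested. Missing the adjusted threshold with 2 libraries per group does not show that a gene lay at the outer mean. The median contrast of all genes was -0.02, and 95% of genes lay between -0.39 and 0.28 on the log2 scale, against a median standard error of 0.10. The smallest contrast called was 0.30. Of the 2901 genes called between T3 and T1, 1877 higher (31.0%) and 1024 lower (16.9%), 2617 or 90.2% had a T2 mean between the outer means. The T2 mean of those 2901 genes lay at a median of 48.1% of the distance from the T1 mean to the T3 mean, with quartiles of 29.5% and 64.6%. These comparisons use the same 6 libraries, so this position is a description with no test. In TPM, more RNA per cell and a larger share of cells with the transcript cannot be told apart.

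The counts depended on single libraries. Leaving out T2 replicate A left 6 genes above and 12 below the outer mean, and leaving out T2 replicate B left 11 and 32. Leaving out T1 replicate A gave 81 and 173, T1 replicate B 78 and 146, and T3 replicate B 23 and 70. The split also moved with the scaling: a median-of-ratios scaling gave 8 above and 12 below, and quantile normalization 5 and 5. Of the 65 genes called, 64 kept their sign under all 17 alternatives, the exception being BIO4. These genes were picked for large contrasts in the same libraries, so keeping the sign was likely from the start. The genes BIO2, BIO3, CSS1, HPF1, PUT4, SSA4 and YJR154W were called under every alternative. That holds for the middle contrast and not for the course described below. PUT4 kept its class in 13 of the 17, and SSA4 and BIO2 kept theirs in 16.

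The steps on either side sorted these genes by course. From T1 to T2, 722 genes were higher in T2 (11.9%) and 369 lower (6.10%), and from T2 to T3, 957 were higher in T3 (15.8%) and 368 lower (6.09%). A peak, higher in T2 than in T1 and then lower in T3 than in T2, was called for 10 genes (0.165%), and a dip, the reverse, for 23 genes (0.380%). The middle contrast itself was called for 7 of the 10 peaks and 17 of the 23 dips. An early rise (middle contrast above 0, T2 above T1, no call from T2 to T3) was called for 6 genes (0.0992%) and an early fall for 19 genes (0.314%). A late rise, called only from T2 to T3 and with T2 below the outer mean, was called for 8 genes (0.132%) and a late fall for 4 genes (0.0662%). The remaining called genes moved at both steps: BIO4 and the cell wall gene YMR122W-A rose by more in the first, AAD6 fell by more in the first, and HAL1 rose by more in the second. The plot of both steps shows these classes off the line of equal steps.

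**Figure D1:**
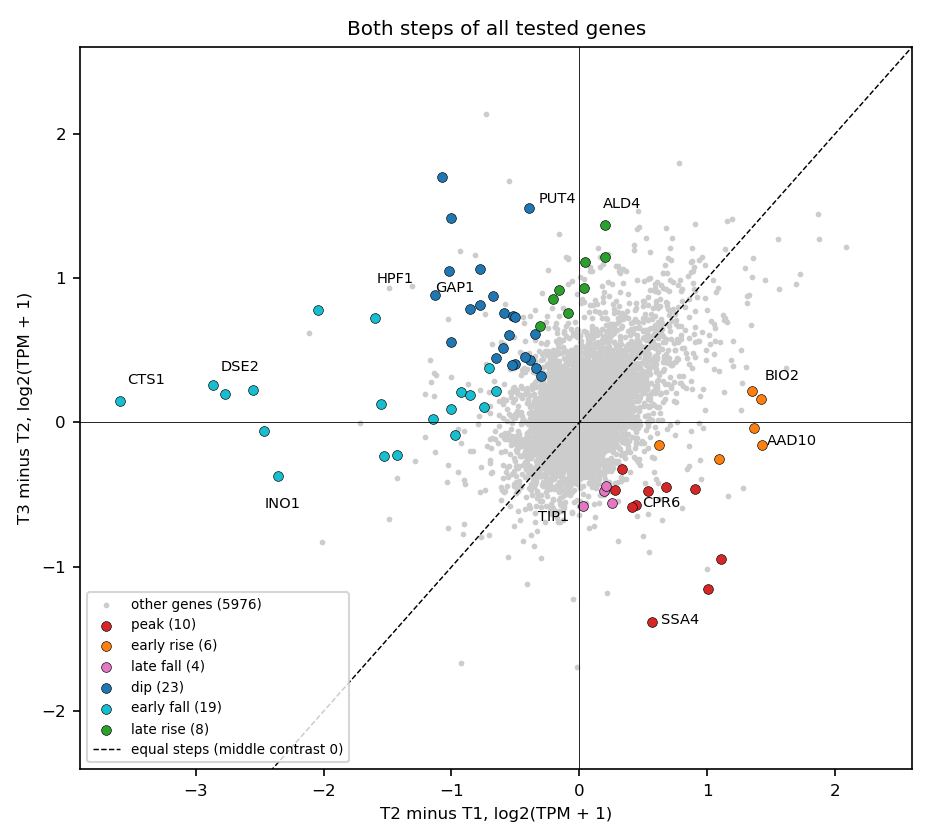
Change of each tested gene from T1 to T2 (horizontal) and from T2 to T3 (vertical), in log2(TPM + 1), with 1 point per gene and the classes coloured. Genes on the dashed line have equal steps and a middle contrast of 0. The 10 peaks lie at the lower right, the 23 dips at the upper left, and CTS1 and other early falls far to the left near 0 on the vertical axis.

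Chaperone genes stood highest among the lists of genes examined. Of 39 heat shock chaperone genes, 6 lay above the outer mean in T2 and 0 below, by limma, and at an unadjusted p below 0.05 the counts were 15 and 2. Over all 6046 genes the counts were 19 and 46 by adjusted p, and 312 and 469 unadjusted. Those counts are the reference for the lists below as well. The median contrast of the list was 0.11, against -0.02 for all genes, and 29 of the 39 contrasts were above 0. The list stayed above the median of all genes under both other scalings, at 0.14 and 0.12. From T1 to T2, 6 of its genes were higher in T2 and 7 lower, against 11.9% and 6.10% of all genes. From T2 to T3, 1 was higher in T3 and 22 lower, against 15.8% and 6.09% of all genes. The summed level was 24289 and 26064 TPM in T1, 22945 and 24958 TPM in T2, and 19422 and 17677 TPM in T3, so the list as a whole did not peak.

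SSA4, a stress-induced Hsp70 of the cytosol (chromosome V, 364589 to 366517, plus strand, YER103W), had the largest middle contrast among peaks with at least 10 TPM whose contrast was called. It stood at 218 and 277 TPM in T1, 337 and 394 TPM in T2, and 148 and 132 TPM in T3. Both T2 libraries lay above all 4 outer ones. T2 was 1.96-fold above the outer mean (log2 0.97, SE 0.10, limma adjusted p = 0.000378). The fall from T2 to T3 (log2 -1.38) was larger than the rise from T1 to T2 (log2 0.57). T3 lay below T1 (log2 -0.81, limma adjusted p = 9.1e-05). HSP26, a small heat shock protein that binds unfolded proteins, had 48.0 and 50.1 TPM in T1, 68.3 and 65.5 TPM in T2, and 45.04 and 44.5 TPM in T3 (1.42-fold, log2 0.51, SE 0.08, limma adjusted p = 0.0103). CPR6, a prolyl isomerase that works with Hsp90, had 840.1 and 957 TPM in T1, 1142 and 1241 TPM in T2, and 829.9 and 756 TPM in T3 (1.41-fold, log2 0.50, SE 0.08, limma adjusted p = 0.00675). For HSP26 and CPR6, too, the T2 libraries lay above all outer ones.

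The other called chaperone genes were late falls. HSP10, the partner of the mitochondrial chaperonin Hsp60 and the most abundant of the 39, had 1681 and 1394 TPM in T1, 1919.9 and 1746 TPM in T2, and 1227 and 1265 TPM in T3 (log2 0.41, SE 0.08, limma adjusted p = 0.0276). AHA1, an activator of the Hsp90 ATPase, and HCH1, its shorter relative, had contrasts of 0.33 and 0.32. Their T2 means were 819 and 933 TPM, and their T3 means 589 and 689 TPM. Hsp90 itself did not pass the test: HSP82 had a contrast of 0.28 (limma adjusted p = 0.23) and HSC82 one of 0.04 (limma adjusted p = 0.9). The Hsp70 genes SSA1 and SSA2 had contrasts of 0.22 and 0.09 and also missed the threshold. Without T2 replicate A, CPR6 and SSA4 remained called among the 6 genes. Without T2 replicate B, HSP26 and SSA4 did. In that fit HSP26 still met the rule for a peak, and SSA4 and CPR6 did not.

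**Figure D2:**
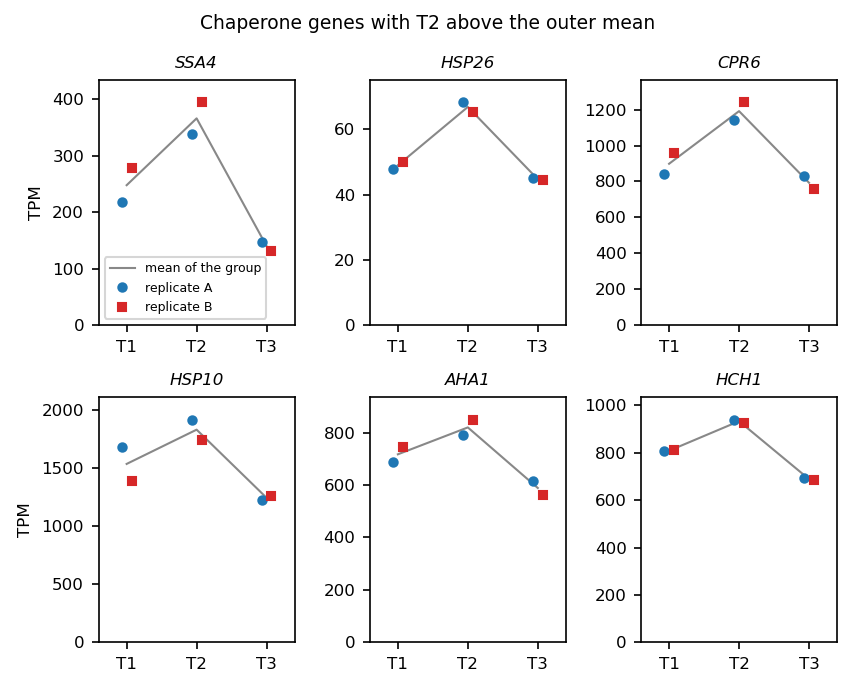
TPM of the 6 called chaperone genes in each library, by group, with circles for replicate A, squares for replicate B and a line through the group means. In SSA4 both T2 libraries, at 337 and 394 TPM, stand above every library of T1 and T3.

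Promoter stretches of the 3 chaperone peaks are shown because their genes moved together. The sequences were read from the RefSeq R64 genome, from 400 to 101 bases before the reading frame, and each runs 5′ to 3′ on the gene's strand. Capitals mark matches to TTCNNGAA or GAANNTTC, which read a pair of facing GAA units. The stretches lie at chrV:364290-364389 on the plus strand, chrII:381630-381729 on the plus strand and chrXII:573312-573411 on the minus strand.
SSA4: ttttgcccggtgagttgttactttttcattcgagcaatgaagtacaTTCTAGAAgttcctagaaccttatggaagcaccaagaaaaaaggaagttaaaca
HSP26: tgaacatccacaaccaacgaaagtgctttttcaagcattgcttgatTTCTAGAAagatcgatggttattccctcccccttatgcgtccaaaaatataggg
CPR6: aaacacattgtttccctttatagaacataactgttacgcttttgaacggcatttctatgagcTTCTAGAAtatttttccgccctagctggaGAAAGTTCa
Either motif, on either strand, was found in the 300-base window of all 6 called chaperone genes, of 27 of the 39 genes of the list (69.2%), and of 1409 of 5968 protein-coding genes (23.6%). A narrower form, TTCTAGAA, is a single case of TTCNNGAA and was picked after the sequences were seen. It was present in 6 of 6 called chaperone genes, 18 of 39 listed ones (46.2%) and 80 of 5968 (1.34%). A match is a run of letters and not a bound site.

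Other peaks came from varied processes. RRN11, a subunit of the core factor that brings RNA polymerase I to ribosomal DNA, had 27.8 and 39.3 TPM in T1, 49.6 and 57.7 TPM in T2, and 38.6 and 39.2 TPM in T3 (log2 0.56, SE 0.12, limma adjusted p = 0.0413). MIX23, a protein of the space between the mitochondrial membranes, averaged 131 TPM in T1, 159 TPM in T2 and 114 TPM in T3, a contrast of 0.38. The little-studied genes YFR012W-A and YOR338W had contrasts of 0.68 and 0.50. ATC1 and the tRNA entries tR(UCU)B and tV(UAC)D peaked by both steps. Their middle contrasts of 0.33, 1.08 and 1.02 missed the threshold (limma adjusted p = 0.0941, 0.093 and 0.0593). Both tRNA entries were at low levels. tR(UCU)B had 0.92 and 0.49 TPM in T1, 2.12 and 2.68 TPM in T2, and 0.612 and 0.444 TPM in T3. tV(UAC)D had 2.69 and 6.197 TPM in T1, 12.9 and 7.81 TPM in T2, and 4.77 and 4.76 TPM in T3. Among late falls, TIP1, a mannoprotein of the cell wall, held 1680.3 and 1651 TPM in T1, 1612 and 1791 TPM in T2, and 1172 and 1103 TPM in T3. Its T1 and T2 libraries overlapped and both T3 libraries lay below them. Without T2 replicate A, 5 of the 10 peaks kept both steps, and without T2 replicate B, 3 did. None of the 4 late falls kept its class without either T2 library, by limma.

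Of the 6 early rises, 3 were biotin genes. Biotin is the vitamin that carries carbon dioxide in carboxylases, and yeast makes it from a precursor through the enzymes encoded by BIO3, BIO4 and BIO2, with BIO5 as the transporter of the precursor. Of 34 vitamin genes 4 lay above the outer mean in T2 and 0 below, by limma, with 7 and 1 at an unadjusted p below 0.05, and the 4 were BIO2, BIO3, BIO4 and BIO5. The median of the list was 0.03. The vitamin genes that missed the threshold ran from THI72 at -0.30 to THI12 at 0.32 and THI5 at 0.41 (limma adjusted p = 0.0883). THI5 and THI12 belong to a family of nearly identical genes of thiamine precursor synthesis, so their reads may be shared. Summed over the 4 biotin genes, the level was 328 and 299.8 TPM in T1, 875 and 881 TPM in T2, and 1237 and 1211 TPM in T3.

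BIO2, the biotin synthase gene (chromosome VII, 1063813 to 1064940, minus strand, YGR286C), had 212 and 199 TPM in T1, 514 and 537 TPM in T2, and 604 and 618 TPM in T3. Most of its change was in place in T2: T2 was 1.48-fold above the outer mean (log2 0.57, SE 0.07, limma adjusted p = 0.00139), with 1.35 of change in the first step and 0.22 in the second. BIO3, an aminotransferase gene, had 42.2 and 37.5 TPM in T1, 109 and 108 TPM in T2, and 127 and 116 TPM in T3 (log2 0.63, SE 0.09, limma adjusted p = 0.00215). BIO5 had 26.6 and 20.8 TPM in T1, 52.6 and 50.1 TPM in T2, and 41.9 and 43.8 TPM in T3 (log2 0.67, SE 0.10, limma adjusted p = 0.00536). Its T2 libraries were the highest of the 6, but the step from T2 to T3 was not called (log2 -0.26, limma adjusted p = 0.13). BIO4, for dethiobiotin synthetase, went on rising, with 46.8 and 42.6 TPM in T1, 199 and 185 TPM in T2, and 464 and 434 TPM in T3. Its contrast of 0.43 turned to -0.06 on the square root scale, where it was not called. BIO5, BIO4 and BIO3 are neighbours on chromosome XIV, with gaps of 52 and 221 bases. BIO2 and BIO3 remained called without T2 replicate A, and BIO2, BIO3 and BIO5 without T2 replicate B.

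The largest contrasts among early rises were those of a pair of neighbouring genes on chromosome X, 580 bases apart. YJR154W, of unknown role, had 33.2 and 30.6 TPM in T1, 84.5 and 90.5 TPM in T2, and 86.7 and 70.5 TPM in T3 (1.73-fold, log2 0.79, SE 0.10, limma adjusted p = 0.00126). AAD10, a putative aryl-alcohol dehydrogenase, had 46.6 and 37.5 TPM in T1, 109 and 110.3 TPM in T2, and 109 and 105 TPM in T3 (log2 0.70, SE 0.09, limma adjusted p = 0.00201). In both genes T2 and T3 overlapped and lay above T1.

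**Figure D3:**
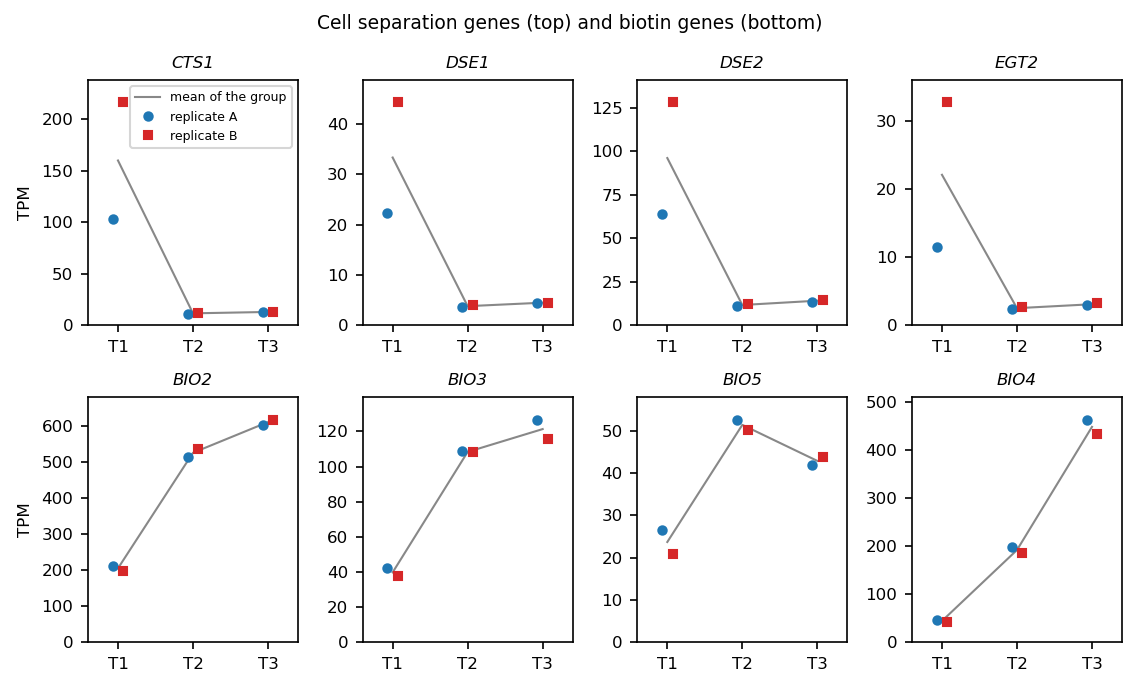
TPM of 4 cell separation genes (top) and 4 biotin genes (bottom) in each library, by group, with circles for replicate A, squares for replicate B and a line through the group means. CTS1 stands at 103 and 216.5 TPM in T1 and between 11.05 and 12.9 TPM in the other groups, while BIO2 is at 514 and 537 TPM in T2 against 604 and 618 TPM in T3.

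Dips included permease genes. PUT4, the proline permease (chromosome XV, 986899 to 988782, minus strand, YOR348C), had 21.6 and 21.7 TPM in T1, 14.8 and 17.8 TPM in T2, and 50.4 and 44.6 TPM in T3 (log2 -0.94, SE 0.10, limma adjusted p = 0.000378). GAP1, the general amino acid permease (chromosome XI, 515063 to 516871, plus strand, YKR039W), had 84.8 and 119 TPM in T1, 55.5 and 70.2 TPM in T2, and 108 and 123 TPM in T3 (log2 -0.77, SE 0.13, limma adjusted p = 0.0116). In both genes the T2 libraries lay below all others. The contrast of PUT4 came more from its rise to T3 (log2 1.49) than from its fall to T2 (log2 -0.39). Its T3 level was 2.14-fold that of T1 (limma adjusted p = 3.96e-06). GAP1 fell further into T2 (log2 -0.68), and its T3 and T1 levels were not called apart (limma adjusted p = 0.292). AGP1, a permease of broad range, was an early fall, with 57.7 and 68.8 TPM in T1, 29.9 and 35.7 TPM in T2, and 37.7 and 38.04 TPM in T3 (log2 -0.57). PTR2, the peptide transporter, was another, with 61.8 and 63.8 TPM in T1, 29.995 and 33.3 TPM in T2, and 30.1 and 29.3 TPM in T3 (log2 -0.44). Of 45 genes of nitrogen catabolite repression and transport, these 4 lay below the outer mean in T2 and 0 above, by limma, with 14 and 0 at an unadjusted p below 0.05. The list had a median contrast of -0.17. Its most abundant member, the glutamine permease gene GNP1, averaged 235 TPM in T1, 181 TPM in T2 and 165 TPM in T3, with a contrast of -0.12 that missed the threshold. The ammonium transporter gene MEP2, at -0.46, missed the threshold (limma adjusted p = 0.093). Without T2 replicate A, PUT4 alone of these permease genes remained called, and neither PUT4 nor GAP1 still met the rule for a dip. Without T2 replicate B, AGP1, GAP1 and PUT4 remained called, and GAP1 and PUT4 still met that rule.

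A stretch of the GAP1 promoter, chrXI:514698-514797 on the plus strand, is shown with GATAAG, or its reverse CTTATC, in capitals.
GAP1: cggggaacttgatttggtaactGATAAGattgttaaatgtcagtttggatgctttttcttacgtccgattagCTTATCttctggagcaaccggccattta
GATAAG on either strand was found in the 300-base window of 3 of the 4 called permease genes, of 26 of 44 listed genes with an annotated window (59.1%), and of 831 of 5968 protein-coding genes (13.9%). PUT4, the permease with the most negative middle contrast, held none in that window.

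HPF1 and CSS1, which encode related glycosylated proteins of the cell wall, also dipped. HPF1 (chromosome XV, 28703 to 31606, minus strand, YOL155C) had 32.4 and 37.2 TPM in T1, 15.1 and 15.6 TPM in T2, and 31.8 and 26.6 TPM in T3 (log2 -1.01, SE 0.10, limma adjusted p = 0.000378). CSS1 (chromosome IX, 23119 to 26106, minus strand, YIL169C) had 22.9 and 24.1 TPM in T1, 10.9 and 11.6 TPM in T2, and 17.8 and 16.3 TPM in T3 (log2 -0.78, SE 0.10, limma adjusted p = 0.00129). Over 511 bases these genes are 95.9% identical, so reads from that stretch could be shared between them.

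Among the dips were PHD1, TEC1 and RME1, singled out after their values were seen. PHD1, a transcription factor of pseudohyphal growth, had 51.2 and 26.8 TPM in T1, 20.2 and 22.3 TPM in T2, and 53.7 and 38.4 TPM in T3 (log2 -0.92, SE 0.19, limma adjusted p = 0.0361). Its replicates lay far apart in T1, yet both T2 libraries were lowest. MMO1, 105 bases upstream of PHD1 on the same strand of chromosome XI, had 24.5 and 14.9 TPM in T1, 8.57 and 9.36 TPM in T2, and 25.4 and 15.2 TPM in T3 (log2 -1.03), with replicate A above replicate B in T1 and T3 in both genes. TEC1, a partner of Ste12 in filamentation, had a contrast of -0.46, with 14.9 TPM in T2 against 21.5 TPM in T1. RME1, a repressor of meiosis, had 21.1 and 30.9 TPM in T1, 18.6 and 16.4 TPM in T2, and 32.3 and 27.4 TPM in T3 (log2 -0.63). The lists on pheromone response and on meiosis had TEC1 and RME1 as their single called members, and PRM5, the most abundant of the pheromone list, had a contrast of 0.18 that missed the threshold. TEC1 and RME1 also belong to the 36 genes of the M to G1 transition, of which 1 lay above the outer mean in T2 (TIP1) and 4 below (EGT2, NIS1, RME1 and TEC1), by limma, with 3 and 7 at an unadjusted p below 0.05. That list had a median of -0.05, and its most abundant member, the cell wall gene SED1, had a contrast of -0.07 that missed the threshold.

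Of 33 genes of the glyoxylate cycle, gluconeogenesis and alternative carbon sources, 4 lay below the outer mean in T2 and 0 above, by limma, with 11 and 0 at an unadjusted p below 0.05. The median contrast was -0.14, and the most abundant member, the peroxisomal malate dehydrogenase gene MDH3, had a contrast of -0.05 that missed the threshold. MDH2, the cytosolic malate dehydrogenase, dipped, with 66.9 and 67.8 TPM in T1, 39.8 and 52.4 TPM in T2, and 74.95 and 65.2 TPM in T3 (log2 -0.58, SE 0.11, limma adjusted p = 0.0249). ATO2, which belongs to a family of acetate and ammonium transporters, dipped to 9.10 and 11.03 TPM in T2, against 15.8 and 13.5 TPM in T1 and 18.2 and 16.4 TPM in T3. ALD4 and IDP2 rose late. ALD4, the mitochondrial aldehyde dehydrogenase, had 44.8 and 43.9 TPM in T1, 51.5 and 50.9 TPM in T2, and 153 and 117 TPM in T3 (log2 -0.58, SE 0.10, limma adjusted p = 0.0173). IDP2, the cytosolic isocitrate dehydrogenase, averaged 15.7 TPM in T1, 18.2 TPM in T2 and 41.5 TPM in T3, a contrast of -0.47. Without T2 replicate A none of these 4 genes remained called, by limma, and without T2 replicate B MDH2 and ATO2 did.

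Further dips were LYS20, a homocitrate synthase of lysine synthesis whose sequence nearly repeats that of LYS21 over 1172 bases and so may share its reads, with a contrast of -0.41, and ICY1, with one of -0.82. The less studied YLR152C, YHL015W-A and YIL077C had contrasts of -0.56, -0.55 and -0.48. YMR320W (-1.21) and the tRNA entry tF(GAA)M (-1.39) were called at very low levels, with 0.378 and 0 TPM in T2 replicate B. FAS2, EIS1, PTH1, GIS1, YDR182W-A and tD(GUC)G1 dipped by both steps, with middle contrasts from -0.31 to -0.80 that missed the threshold. FAS2, the alpha subunit of fatty acid synthase, was the most abundant of the dips, with 322 and 363.5 TPM in T1, 263 and 292 TPM in T2, and 361 and 335 TPM in T3. Without T2 replicate A, 10 of the 23 dips kept both steps, and without T2 replicate B, 15 did.

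**Figure D4:**
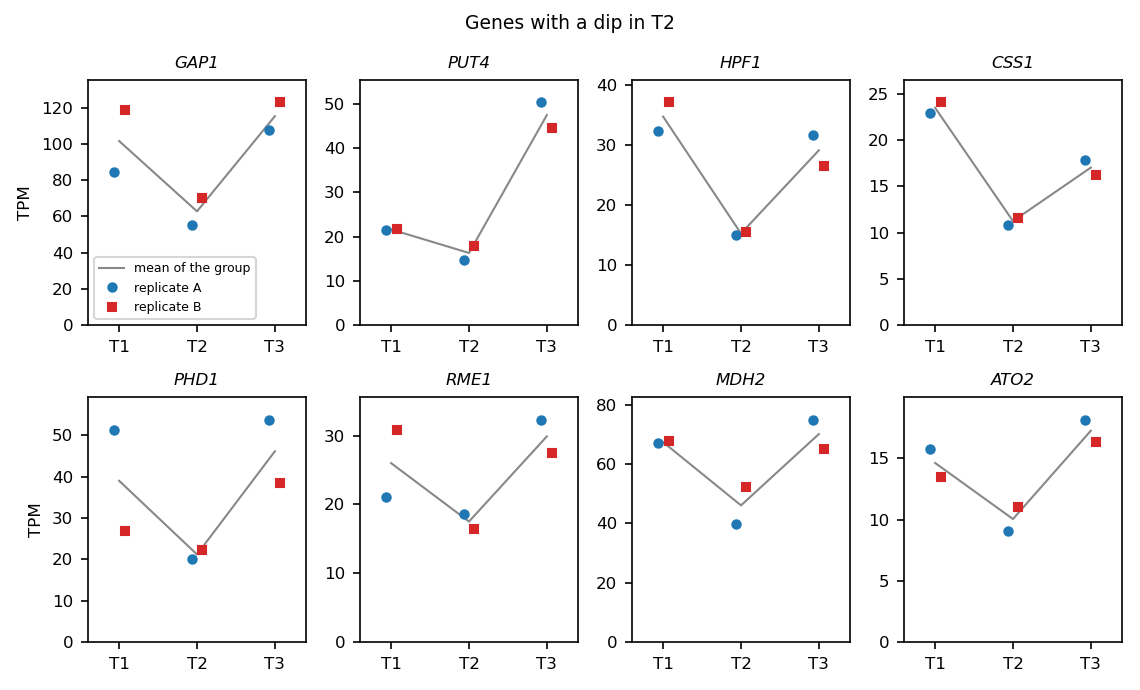
TPM of 8 dipping genes in each library, by group, with circles for replicate A, squares for replicate B and a line through the group means. In each panel both T2 libraries are the lowest of the 6, as in HPF1 with 15.1 and 15.6 TPM against 26.6 TPM or more elsewhere.

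Part of the daughter cell separation genes fell early. Of 17 such genes, 8 lay below the outer mean in T2 and 0 above, by limma, with 11 and 1 at an unadjusted p below 0.05, and the median contrast was -0.49. From T1 to T2, 10 of the 17 were lower in T2 and 1 higher, against 6.10% and 11.9% of all genes. From T2 to T3, 3 were higher in T3 (SIM1, ASH1 and ISR1) and 0 lower, against 15.8% and 6.09% of all genes. Summed over all 17, the level was 563 and 913 TPM in T1, 447 and 495 TPM in T2, and 653 and 631 TPM in T3, so the T3 sums of the whole list lay between those of the T1 libraries. Summed over the 8 that fell, the level was 284 and 577 TPM in T1, 64.1 and 67.4 TPM in T2, and 75.7 and 77.04 TPM in T3. CTS1, the endochitinase that parts the cells, had 103 and 216.5 TPM in T1, 11.05 and 11.9 TPM in T2, and 12.9 and 12.8 TPM in T3 (log2 -1.87, SE 0.20, limma adjusted p = 0.000378). DSE2, with 64.02 and 128 TPM in T1, 10.9 and 12.3 TPM in T2, and 13.5 and 14.6 TPM in T3, had a contrast of -1.56, and DSE1, which ended at 4.51 and 4.44 TPM in T3, one of -1.48. The others were the glucanase genes DSE4 and SCW11, and EGT2, AMN1 and SUN4, with contrasts of -1.41, -1.20, -1.39, -0.84 and -0.55. The step from T2 to T3 was not called for these 8 genes by limma, and it was largest for DSE4, which averaged 3.64 TPM in T2 and 6.97 TPM in T3 (log2 0.78, limma adjusted p = 0.061).

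The T1 replicates differed for these genes. Replicate B held 1.45 to 2.86 times the level of replicate A (median 2.05) for the 8 genes, while 95% of all genes had a ratio between 0.714 and 1.38. For each of the 8, both T1 libraries lay above all T2 and T3 libraries. Each contrast also kept its sign with either T1 replicate left out, which that order of the libraries made nearly certain. Whether the difference between the T1 replicates bears on the size of the contrast was not tested. Of the 8, CTS1, DSE1 and DSE2 remained called without T2 replicate A, these and DSE4 without T2 replicate B, and under quantile normalization none, by limma. The list's median was -0.47 with the median-of-ratios scaling and -0.45 with quantile normalization. Other members of the list took other courses. SIM1, the most abundant, averaged 72.5 TPM in T1, 185 TPM in T2 and 295 TPM in T3, with a contrast of 0.33 (limma adjusted p = 0.0962). ASH1, which represses mating-type switching in daughters, stood at 37.0, 46.2 and 78.3 TPM in T1, T2 and T3, and the kinase gene CBK1 had a contrast of -0.06 that missed the threshold.

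The other early falls included lipid genes. INO1, which makes inositol phosphate from glucose phosphate (chromosome X, 134332 to 135933, minus strand, YJL153C), had 51.6 and 70.7 TPM in T1, 12.003 and 10.03 TPM in T2, and 8.86 and 7.69 TPM in T3 (log2 -0.99, SE 0.13, limma adjusted p = 0.00139). It was the single called member of 22 genes of inositol and phospholipid synthesis, of which OPI3 was the most abundant, with a contrast of -0.08. OLE1, the fatty acid desaturase, had 330.4 and 374 TPM in T1, 195 and 225 TPM in T2, and 223 and 228 TPM in T3 (log2 -0.43, SE 0.09, limma adjusted p = 0.0335). AQY2, an aquaporin gene, and YLL053C overlap by 50 bases on chromosome XII, so reads within that stretch cannot be assigned to one of them, and had contrasts of -0.60 and -0.65. BDF1, a bromodomain protein of transcription, had one of -0.44, PNS1 -0.52 and ICS2 -0.59. YGL006W-A and the tRNA entry tL(CAA)K completed the class. YGL006W-A averaged 47.2 TPM in T1, 28.9 TPM in T2 and 37.5 TPM in T3, and its rise to T3 narrowly missed a call (limma adjusted p = 0.0524). tL(CAA)K was at very low levels, with 0.932 and 0.470 TPM in T2. Without T2 replicate A, CTS1, DSE1, DSE2 and INO1 kept the class. Without T2 replicate B, these and AGP1, DSE4 and OLE1 did.

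The other 6 late rises came from varied processes. CUP9, a repressor of the peptide transporter gene PTR2, had 46.8 and 40.3 TPM in T1, 42.8 and 46.4 TPM in T2, and 91.0 and 81.3 TPM in T3 (log2 -0.45, SE 0.09, limma adjusted p = 0.0362). Its T1 and T2 libraries overlapped, and PTR2 itself was lower in T2 than in T1 and had no call from T2 to T3. GLG1, which primes glycogen, averaged 11.8 TPM in T1, 10.4 TPM in T2 and 20.5 TPM in T3, a contrast of -0.54. DDR48, a stress gene, had a contrast of -0.42, NIS1, a protein of the bud neck, one of -0.53, and YCR101C and YPL247C had contrasts of -0.54 and -0.49. None of the 8 late rises kept its class without T2 replicate A, by limma, and YCR101C alone kept it without T2 replicate B.

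Large groups that differed between the outer groups passed through T2 on the way. Of 138 cytosolic ribosomal protein genes 0 were called in the middle contrast by limma, with 20 above and 1 below at an unadjusted p below 0.05, and the median was 0.06. Of the 93 called between T3 and T1, T2 lay at a median of 36.0% of the distance. Of 130 ribosome biogenesis genes 0 were called (10 above and 2 below unadjusted), with a median contrast of 0.02 and T2 at 45.7% of the distance. In both lists the step from T2 to T3 had more lower calls than the step from T1 to T2, 59 against 22 for ribosomal proteins and 36 against 27 for ribosome biogenesis, a difference in counts that was not tested. Over all genes these counts were 368 against 369.

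Among rising groups, the tricarboxylic acid cycle had 0 of 20 genes called by limma, with 6 below and 0 above unadjusted, a median contrast of -0.14 and T2 at 36.8% of the distance. The respiratory chain had 0 of 41 called (2 above and 8 below unadjusted) and a median of -0.04. Of 89 general stress genes 2 were above (SSA4 and HSP26) and 2 below (ALD4 and DDR48), with a median of -0.09. Genes of the G1 to S transition had 0 of 75 called (7 above and 4 below unadjusted), a median of 0.06 and T2 at 60.1% of the distance. Proteasome genes had 0 of 39 called (4 and 1 unadjusted) and T2 at 66.3% of the distance. The 72 genes of amino acid synthesis had LYS20 as the only called member, with 3 above and 17 below unadjusted, and T2 at 29.0% of the distance. For all genes the figure was 48.1%. In other lists with called genes the most abundant member missed the threshold. These were CWP2 at 0.24 (cell wall, limma adjusted p = 0.0685), AHP1 at 0.14 (oxidative stress), HYP2 at 0.11 (oxygen and heme), HOR7 at 0.02 (general stress), TPS1 at 0.02 (trehalose and glycogen), ERG2 at -0.01 (fatty acid and sterol), HIS3 at -0.19 (amino acid synthesis) and PMP1 at -0.19 (G2 to M transition). The plot of contrasts by list shows that medians other than that of daughter cell separation lay within 0.2 of 0.

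**Figure D5:**
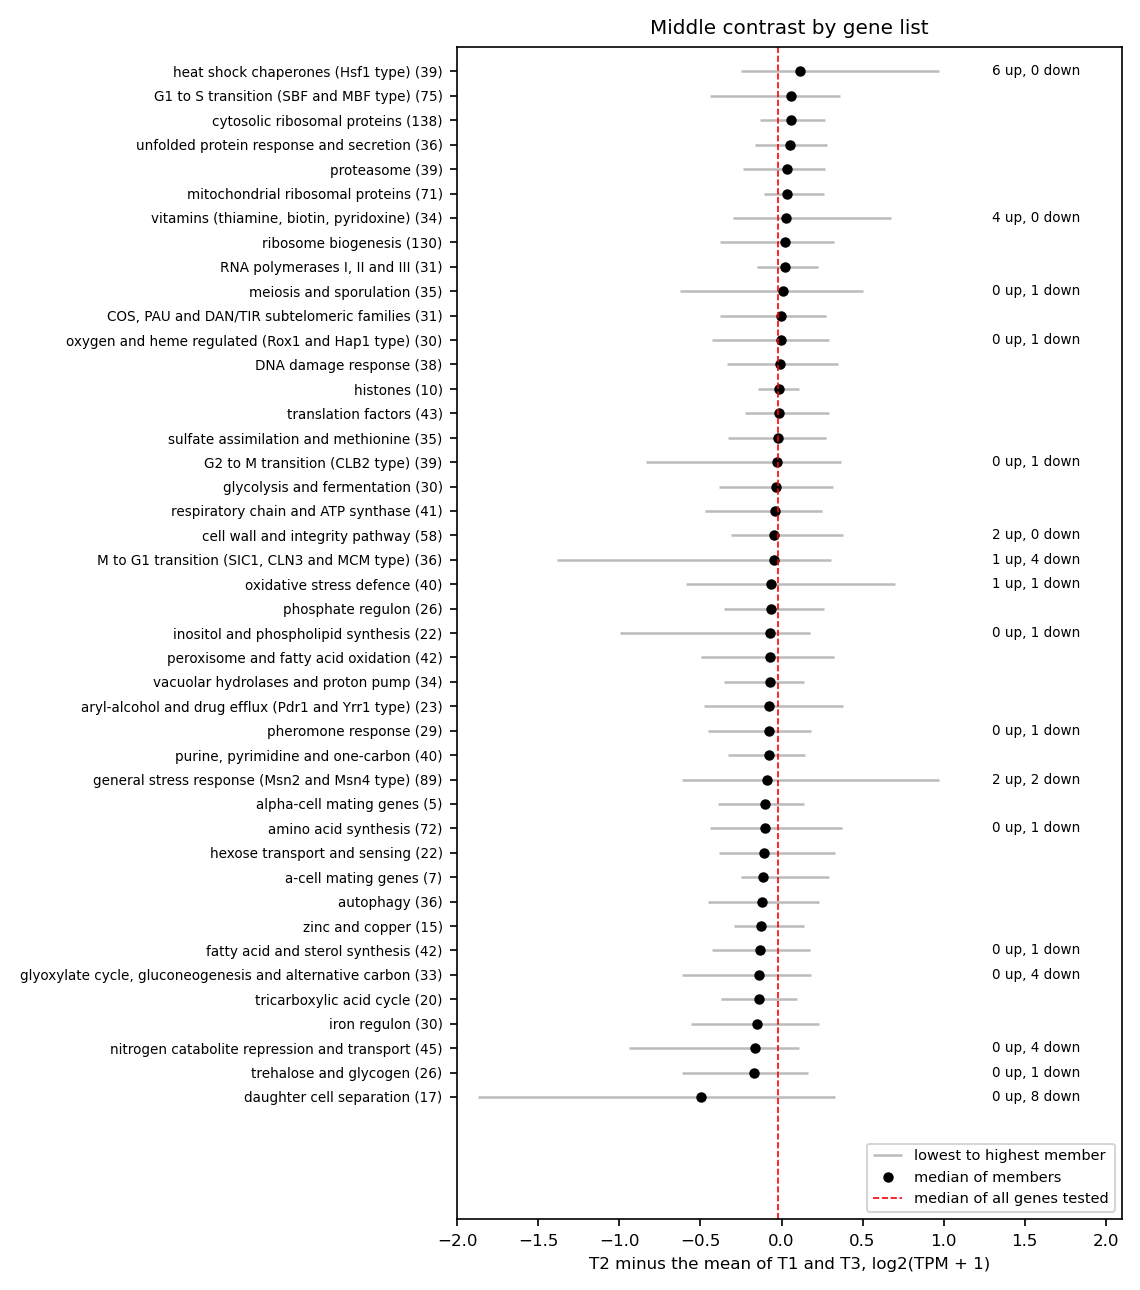
Middle contrast (T2 minus the mean of T1 and T3, log2) of 43 gene lists, with the number of tested genes in brackets, the median as a dot, the range of members as a bar and the counts called above and below at the right. The median of daughter cell separation, at -0.49, is the lowest and that of heat shock chaperones, at 0.11, the highest.

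Genes of cell cycle control and common references were looked at by name. The G1 cyclins CLN1, CLN2 and CLN3 had contrasts of -0.06, -0.08 and 0.08, with 95% intervals of -0.26 to 0.13, -0.26 to 0.11 and -0.16 to 0.32. WHI5, the repressor of Start diluted by growth, had 8.71 TPM in T1, 7.35 TPM in T2 and 7.07 TPM in T3 (contrast -0.07, interval -0.40 to 0.25). SWI4, the DNA-binding subunit of the factor that Whi5 restrains, had a contrast of 0.08. The mitotic cyclin gene CLB2 averaged 8.87 TPM in T1, 30.4 TPM in T2 and 59.7 TPM in T3, and its contrast of 0.37 (interval 0.07 to 0.66) missed the threshold with a limma adjusted p = 0.272. SIC1, an inhibitor of B-type cyclin kinases, had a contrast of -0.27 (limma adjusted p = 0.26). ACT1, for actin, and TDH3, a glycolytic gene, had contrasts of 0.04 and -0.02. PMA1, the plasma membrane proton pump, came nearest to the threshold of this set apart from INO1, with 1220 TPM in T1, 841 TPM in T2 and 947 TPM in T3, a contrast of -0.36 and a limma adjusted p = 0.0599. HSP12, HXT1, MET17 and PHO84 had contrasts of 0.21, -0.22, 0.24 and -0.03, and all missed it.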

How the data were processed

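Poly(A) RNA of 6 libraries was measured. The authors deposited a single table of TPM values per gene, per the file headers; each library has a fixed total, so levels are shares. The submitters' processing notes name STAR 2.5.2b, Subread 1.5.2, featureCounts and the build R64. Strand setting and treatment of reads with several matches are not given in the sources used here. Multiplying TPM by exonic length and a factor per library gave whole fragments (within 0.1) for at least 99.8% of reading frames with at most 500 fragments, with totals from 17881464 to 23549188. These depths were used as a description only.

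Genes were matched to RefSeq R64 (6162 of 6400 names). Values were transformed to log2(TPM + 1), and group means of all 6 libraries were fitted in limma 3.58.1 (R 4.3.3) with eBayes and an abundance trend, 10.7 prior and 3 residual degrees of freedom. All tests were two-sided, with Benjamini-Hochberg adjustment over 6046 genes at 0.05. Folds are on the log2(TPM + 1) scale and understate changes of low genes. Copies were sought with BLAST 2.17.0; tables and plots used Python 3.11.15, pandas 2.3.3, NumPy 2.4.6 and matplotlib 3.10.9.

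The contrast, gene lists and rules were chosen with earlier results of these data known. Among genes with at least 10 TPM in a group, those named were the 8 largest peaks and dips, the 4 largest of each other class, the most abundant and up to 3 called members of each list with calls, and 15 by name. The remaining called genes were named after their values were seen. There were 17 alternatives: pseudocounts, filters, scalings, a square root scale, no trend, a replicate term, each library left out, and gene length. Some results are not reported here.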

Additional observations from a re-analysis of the deposited data

How the results depend on the processing

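Counts of calls moved more than the directions of the called genes, which were picked for large contrasts in the same libraries. Fitted contrasts of 64 of the 65 called genes kept their sign under all 17 alternatives, and BIO4 turned to -0.062 on the square root scale. Called under every alternative that fitted them were 7 genes, 11 in at least 15 and 19 in under 9. With a lone library left in a group, it was assumed to vary like the other groups.

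With main counts of 19 genes above the outer mean, 46 below, 10 peaks, 23 dips, 6 early rises, 19 early falls, 8 late rises and 4 late falls, leaving out each library in turn gave 6 to 81 above, 12 to 173 below, 4 to 20 peaks, 17 to 40 dips, 4 to 31 early rises, 4 to 43 early falls, 1 to 79 late rises and 0 to 24 late falls. The cause was not tested. Without a filter there were 8 above and 9 below, 4 early falls, 1 late rise and 0 late falls. With a mean of at least 10 TPM, 5152 genes were tested, with 34 above and 79 below, 28 late rises and 7 late falls. Why these counts were higher was not tested. A pseudocount of 0.1 gave 2 late falls. Rescaling by the median of ratios gave 8 above and 12 below, 5 early falls, 1 late rise and 0 late falls. Quantile normalization gave 5 above and 5 below, 3 early rises, 1 early fall, 0 late rises and 0 late falls. On the square root scale there were 11 above and 8 below, 14 dips, 1 early fall, 2 late rises and 0 late falls. Without the abundance trend there were 6 above and 9 below, 5 peaks, 3 early falls, 1 late rise and 0 late falls. Genes of at least 500 nt gave 58 above and 142 below, 36 dips, 19 early rises, 34 early falls, 62 late rises and 16 late falls, and removal of the trend on length gave 35 above, 22 peaks, 40 dips, 11 early falls and 11 late falls.

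The labels link replicates across groups only by the letters A and B. Differences between A and B correlated at 0.132 between T1 and T2, -0.058 between T1 and T3 and -0.150 between T2 and T3. These values cannot tell whether libraries with the same letter shared a culture or a batch. With a replicate block, 43 genes were called, 30 of them below the outer mean, with 3 late rises and 1 late fall.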

Other observations

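Some of the genes called in the middle contrast, or as a peak or dip by both steps alone, are neighbours on a chromosome. Besides BIO5, BIO4 and BIO3 and the pair YJR154W and AAD10, these were MMO1 and PHD1 (gap of 105 bases), ICS2 and AMN1 (2238 bases), and YDR182W-A and ATC1 (1274 bases), of which YDR182W-A dipped and ATC1 peaked. AAD6, a relative of AAD10 on another chromosome, took the opposite course and fell in both steps, with 129 and 169 TPM in T1, 33.4 and 38.5 TPM in T2, and 18.4 and 21.3 TPM in T3. YMR122W-A, a cell wall gene at high level, had 1593 and 1375 TPM in T1, 3790.3 and 3320.4 TPM in T2, and 4899.8 and 5159 TPM in T3, a contrast of 0.38 (limma adjusted p = 0.028). HAL1, linked to salt tolerance, had 16.8 and 18.2 TPM in T1, 23.8 and 25.4 TPM in T2, and 67.0 and 61.8 TPM in T3, a contrast of -0.44 (limma adjusted p = 0.0338).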
